A study of Homo sapiens with 26 samples.

Results

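The promoters of 8 genes of cholesterol synthesis and its control, TM7SF2, HMGCS1, IDI1, FDFT1, SQLE, INSIG1, SREBF1 and SREBF2, were followed in ChIP-seq peak lists of the histone marks H3K27ac and H3K4me1. They are 8 of 19705 protein-coding genes with an annotated start site. The group was picked on these data because the H3K27ac peak at the TM7SF2 promoter moved up the WT list after 1 h of Nutlin-3a. Values of that comparison are therefore given as a description with no test, as is every value of TM7SF2 that uses the WT 0 h or WT 1 h H3K27ac lists. For the other genes its changes enter a test only within the difference between the lines in the 1 h change. Peaks were merged into regions over the lists of a mark. A region was assigned to a gene where it covered at least 1 bp of a promoter. A promoter is the 1000 bp before and 200 bp after any start site of the gene. Ranks are those of the strongest peak of the region, which can lie outside the promoter.

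The cells were HCT116, a colorectal carcinoma line that keeps p53, treated with the vehicle DMSO (0 h) or with Nutlin-3a, a small molecule that releases p53 from HDM2, for 1 or 10 h. In the parental line, called WT, both marks were profiled at each of the 3 times. H3K27ac was also profiled at 0 h and 1 h in HCT116_RAD21, here the RAD21 line. The study describes it as a degron line in which an auxin analogue (5-Ph-IAA) removes the cohesin subunit RAD21 before Nutlin-3a. The labels name only the line and the hours of Nutlin-3a, and the peak names of both its time points carry the letters KD, so cells before any loss of RAD21 were not among the lists used here. Each of the 8 groups held 2 libraries with 1 peak list each, 10 lists for H3K27ac and 6 for H3K4me1. The study calls the 2 libraries of a group biological replicates. P-values rest on the spread between such libraries, pooled over all groups of a mark, which for H3K27ac come from both lines. They do not measure spread between separately derived lines.

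Cholesterol is built from acetyl-CoA through mevalonate. HMGCS1 makes the HMG-CoA that feeds the pathway, IDI1 interconverts the isoprene units, FDFT1 joins them into squalene, SQLE oxidises squalene, and TM7SF2 is a sterol reductase of the late steps. SREBF1 and SREBF2 encode the SREBP transcription factors that switch these genes on when sterols are scarce, and INSIG1 holds the SREBPs in the endoplasmic reticulum when sterols are plentiful. H3K27ac marks active promoters and enhancers, while H3K4me1 is spread over enhancers and the flanks of promoters. Both are read here as the rank of a peak among all peaks of its own list. The study also measured RNA, which was not used here.

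The lists held 31640 to 49127 H3K27ac peaks and 84492 to 92943 H3K4me1 peaks. They give no read totals, so depth is unknown except through the peaks. Peak names of 3 H3K27ac lists (both of WT 0 h and replicate 1 of WT 1 h) lacked the word input, and the names of the other 7 carried it. The local background recovered at peak summits had a median of 8.12 to 11.5 fragments in those 3 lists and of 1.92 to 3.43 in the 7. All 6 colon and epithelial genes looked up (EPCAM, CDH1, KRT8, KRT18, KRT19 and CDX2) had a promoter peak of both marks in every list. No H3K27ac list had a promoter peak at any of 3 liver, 2 blood and 2 muscle genes. For H3K4me1 this held for all but the liver gene TTR, which had a peak in all 6 lists. ChIP-seq of a culture cannot tell a mark carried by fewer cells from a weaker mark in each cell.

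The promoters are shown first, since H3K27ac was called over each of them. Windows took 250 bp before and 50 bp after the canonical start site on GRCh37, read 5′ to 3′ along the gene, for 5 of the genes that the results below turn on. TM7SF2 lies at chr11:64879094-64879393 (plus strand), INSIG1 at chr7:155089338-155089637 (plus), SREBF1 at chr17:17740251-17740550 (minus), SREBF2 at chr22:42228859-42229158 (plus) and IDI1 at chr10:1095010-1095309 (minus). Capitals mark matches on either strand to the sterol regulatory element TCACNCCAC, the E-box CACGTG, the NF-Y box CCAAT, the Sp1 box GGGCGG and the p53 half-site decamer.
TM7SF2: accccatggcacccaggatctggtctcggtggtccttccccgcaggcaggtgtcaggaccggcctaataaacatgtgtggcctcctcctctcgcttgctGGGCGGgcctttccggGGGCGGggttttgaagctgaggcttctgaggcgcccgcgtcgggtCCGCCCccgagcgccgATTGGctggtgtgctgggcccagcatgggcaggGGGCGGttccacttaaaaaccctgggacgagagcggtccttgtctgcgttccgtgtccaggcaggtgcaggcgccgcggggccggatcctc
INSIG1: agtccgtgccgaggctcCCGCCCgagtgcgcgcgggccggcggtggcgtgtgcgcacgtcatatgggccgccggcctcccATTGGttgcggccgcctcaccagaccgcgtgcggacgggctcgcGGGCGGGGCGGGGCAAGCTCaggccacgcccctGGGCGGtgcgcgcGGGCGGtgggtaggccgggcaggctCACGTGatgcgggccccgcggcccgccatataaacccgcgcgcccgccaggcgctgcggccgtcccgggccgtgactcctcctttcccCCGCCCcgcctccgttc
SREBF1: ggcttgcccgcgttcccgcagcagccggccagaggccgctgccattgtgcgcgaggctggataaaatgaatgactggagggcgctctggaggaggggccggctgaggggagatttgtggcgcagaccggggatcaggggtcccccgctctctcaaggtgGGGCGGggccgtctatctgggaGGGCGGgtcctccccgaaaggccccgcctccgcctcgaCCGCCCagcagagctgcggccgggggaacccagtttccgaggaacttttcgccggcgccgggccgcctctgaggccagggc
SREBF2: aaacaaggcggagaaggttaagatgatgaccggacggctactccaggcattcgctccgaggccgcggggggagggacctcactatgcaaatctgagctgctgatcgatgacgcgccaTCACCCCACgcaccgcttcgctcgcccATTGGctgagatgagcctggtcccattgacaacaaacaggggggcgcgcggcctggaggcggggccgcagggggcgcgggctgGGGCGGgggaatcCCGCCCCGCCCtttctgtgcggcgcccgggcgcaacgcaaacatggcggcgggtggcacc
IDI1: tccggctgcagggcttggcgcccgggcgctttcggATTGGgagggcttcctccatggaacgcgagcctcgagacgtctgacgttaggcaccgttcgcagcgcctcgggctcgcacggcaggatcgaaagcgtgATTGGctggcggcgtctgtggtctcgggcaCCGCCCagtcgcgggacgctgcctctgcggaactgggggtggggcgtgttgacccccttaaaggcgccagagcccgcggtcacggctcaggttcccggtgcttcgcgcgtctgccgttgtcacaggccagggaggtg
In TM7SF2 the capitals are an NF-Y box beginning 74 bp upstream of the start, read on the minus strand, and Sp1 boxes beginning 151, 135, 90 and 41 bp upstream. The SREBF2 window holds a sterol regulatory element 133 bp upstream and an NF-Y box 106 bp upstream, with Sp1 boxes 23, 10 and 5 bp upstream. In INSIG1 an E-box begins 55 bp and an NF-Y box 170 bp upstream, and the run of capitals from 126 bp upstream is a pair of overlapping Sp1 boxes whose last base also opens a p53 half-site decamer. Other Sp1 boxes of INSIG1 begin 233, 93 and 80 bp upstream and 33 bp downstream. SREBF1 has Sp1 boxes only, beginning 91, 69 and 31 bp upstream. IDI1 has NF-Y boxes 215 and 117 bp and an Sp1 box 87 bp upstream. A match is a run of letters and not evidence of a bound factor.

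Over all 8 windows, an NF-Y box was found in 7 of the 8 genes (all but SREBF1) and in 36.0% of 19437 protein-coding promoters searched in the same way. The Sp1 box was found in 8 of 8 and in 62.0% of promoters. The sterol regulatory element, the E-box and the p53 half-site decamer were each found in 1 of the 8 (SREBF2, INSIG1 and INSIG1) and in 1.22%, 8.77% and 5.52% of promoters. These shares describe the windows and were not tested.

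Every gene had a promoter peak of H3K27ac in all 10 lists and of H3K4me1 in all 6. With only peaks of a −log10 q-value of at least 5, TM7SF2 kept its H3K27ac peak in 8 of 10 lists and the other 7 genes in 10 of 10. Peaks covered at least 0.5 of a promoter window of TM7SF2 in 5 of 10 H3K27ac lists, and in 10 of 10 for each other gene. The canonical start sites lie on chromosome 11 at 64879344 (TM7SF2), chromosome 5 at 43313514 (HMGCS1), chromosome 10 at 1095059 (IDI1), chromosome 8 at 11660250 (FDFT1) and 126010747 (SQLE), chromosome 7 at 155089588 (INSIG1), chromosome 17 at 17740300 (SREBF1) and chromosome 22 at 42229109 (SREBF2). IDI1 shares its region with the divergent gene WDR37, whose start lies 419 bp away, so the peak there cannot be given to 1 of the 2 genes. No other gene of the 8 has another coding promoter in its H3K27ac region.

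SREBF1 ranked first of the 8 in each of the 10 lists, at the 95.7th to 100th percentile (0 being the weakest and 100 the strongest peak of the list by −log10 p-value). HMGCS1 (89.7 to 95.4), SREBF2 (89.4 to 94.4), INSIG1 (88.6 to 94.7) and IDI1 (83.2 to 98.2) followed, with ranges that overlap. FDFT1 (59.7 to 79.2) and SQLE (54.9 to 77.5) were lower and also overlap each other. TM7SF2 spanned 9.18 to 81.9, the widest range of the 8.

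**Figure D1:**
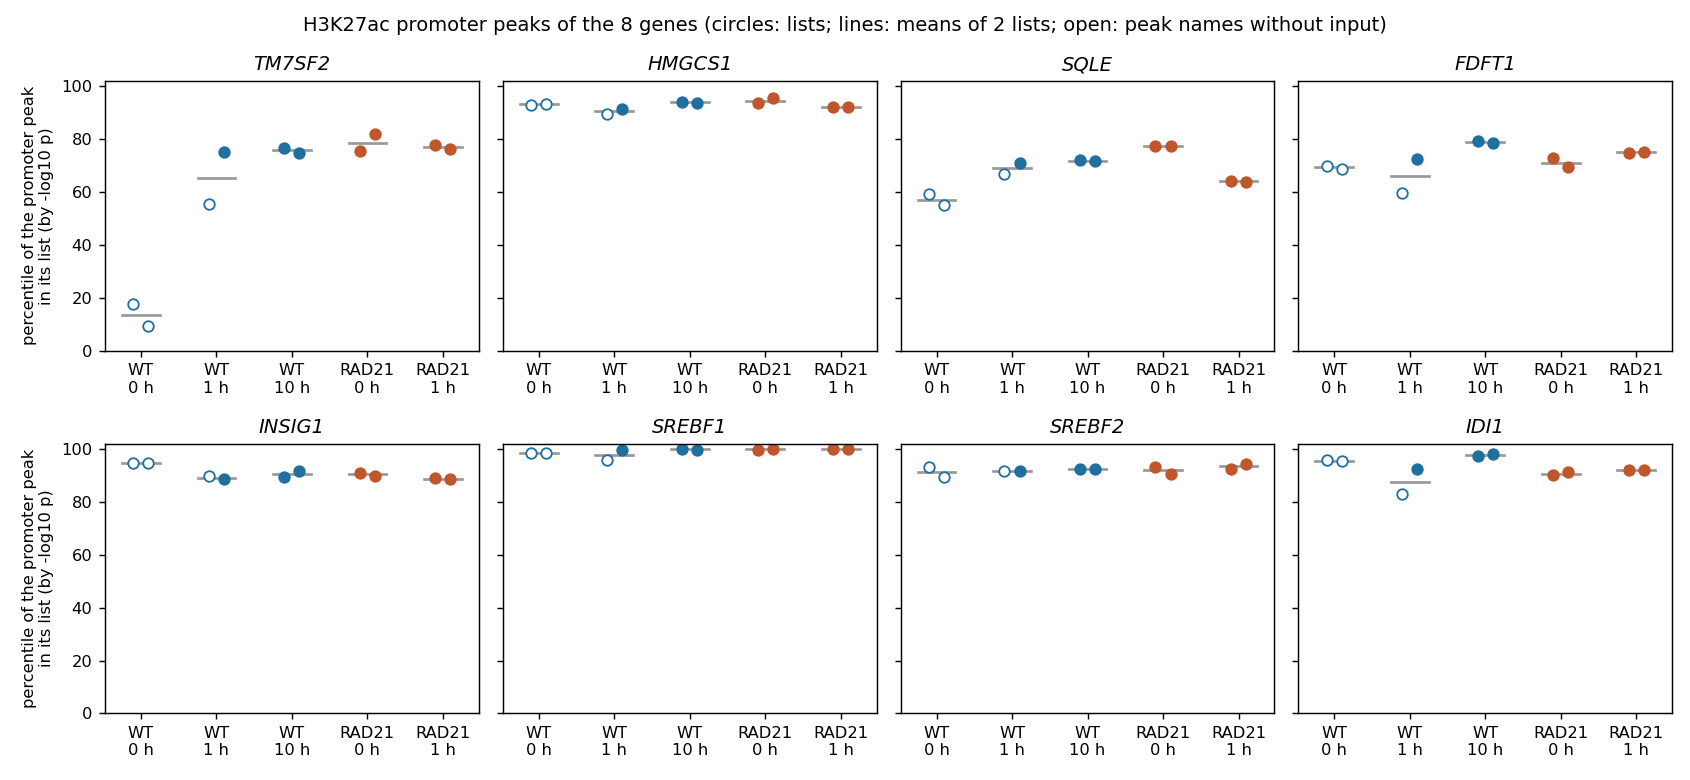
Percentile of the H3K27ac promoter peak within its list (y axis, 0 to 100) for each gene, by line and hours of Nutlin-3a (x axis). Circles are single lists, grey lines the mean of 2 lists, and open circles the 3 lists whose peak names lack the word input. TM7SF2 is at 17.8 and 9.18 in WT at 0 h and between 55.3 and 81.9 in the other 8 lists, while SQLE falls from 77.3 and 77.5 to 64.2 and 63.8 in the RAD21 line.

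The TM7SF2 promoter, whose rise chose the group, ranked at the 17.8th and 9.18th percentile in the WT 0 h lists, at 55.3 and 75.3 at 1 h, and at 76.7 and 74.8 at 10 h. Both lists of each later time were above both 0 h lists, and replicate 1 of 1 h lay below replicate 2. The RAD21 line had percentiles of 75.5 and 81.9 at 0 h and of 77.9 and 76.3 at 1 h, so all 4 were also above the WT 0 h lists. To compare lists of different length, ranks were also taken over the 18757 regions called in all 10 lists and turned into normal scores, in which 0 is the median region and 1 is 1 SD above it. On that scale TM7SF2 differed by 2.23 between WT 1 h and 0 h, by 2.28 between WT 10 h and 0 h, and by 0.05 between WT 10 h and 1 h.

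Fragments at the TM7SF2 summit are set beside the list medians, since the lists differ in scale and the numbers alone do not show a change. They were 66.0 and 63.0 in the WT 0 h lists, 95 and 68 at 1 h and 61.9 and 61.0 at 10 h. The list medians were 58 and 53, 52 and 22, and 17.7 and 19.8. Relative to its list median, the summit stood at 1.14 and 1.19 at 0 h, 1.83 and 3.09 at 1 h and 3.50 and 3.08 at 10 h. The local background set against it was 33.5 and 34.7 fragments at 0 h, 23.8 and 3.15 at 1 h and 2.77 and 2.77 at 10 h. For the RAD21 line it was 2.01 and 3.43 at 0 h and 2.19 and 3.13 at 1 h, under summits of 52.0, 90.0, 106 and 164 fragments.

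The 3 high backgrounds at TM7SF2 are those of the 3 lists whose peak names lack the word input, and a background of more than 20 fragments was present in no other list. Replicate 1 of WT 1 h, which shares that form with both 0 h lists, was at percentile 55.3 with 95 fragments, above both. Ranked by fragments at the summit in place of the p-value, the WT 1 h difference was 0.43, and 0.44 with the peak name form as a term in the fit (both alternatives were added after seeing the data). With the form as a term and ranks by p-value it was 1.99. At 0 h the form cannot be told apart from the group, and its part in the TM7SF2 rise was not tested.

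**Figure D2:**
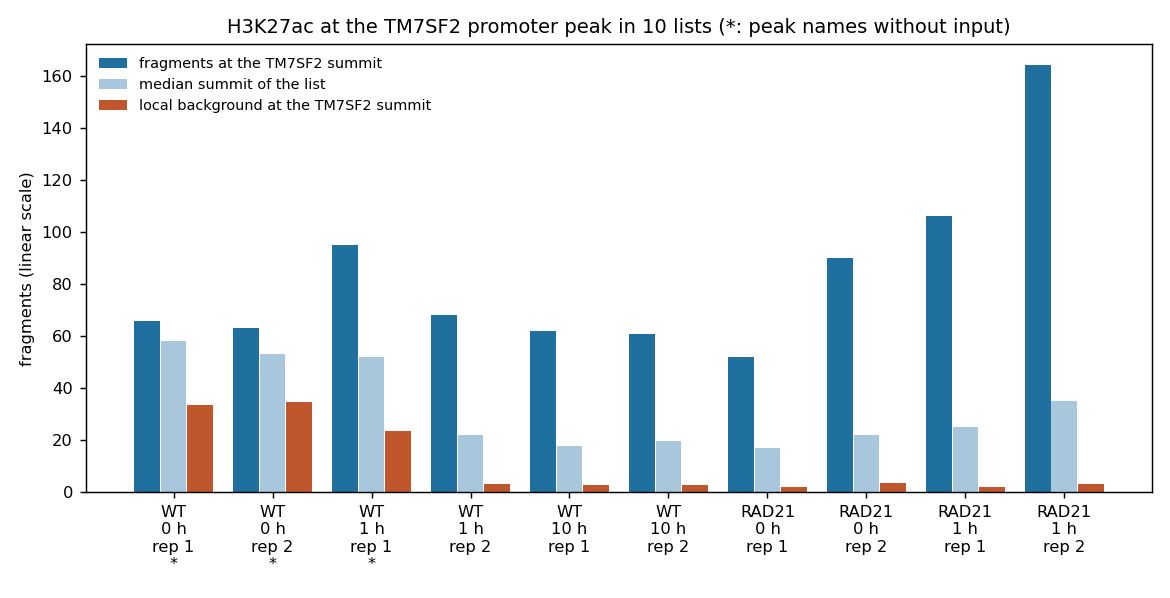
Fragments at the TM7SF2 H3K27ac summit (dark blue), the median summit of the same list (light blue) and the local background at TM7SF2 (orange), in fragments on a linear axis, for the 10 lists (x axis; stars mark peak names without input). The TM7SF2 summit is 61.0 to 95 fragments in the 6 WT lists, while the background is 23.8 to 34.7 in the starred lists and at most 3.43 in the others.

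TM7SF2 was tested only in the contrast within the RAD21 line and for H3K4me1, and the SE of the former comes from all 10 lists, the WT ones included. In the RAD21 line it differed by −0.04 between 1 h and 0 h (95% interval −0.45 to 0.36; limma, adjusted p = 0.881), from normal scores of −0.03 and 0.24 at 0 h and 0.09 and 0.04 at 1 h that overlap. H3K4me1 at the same promoter was at the 93.5th and 91.7th percentile at 0 h, 93.1 and 87.9 at 1 h, and 93.4 and 95.5 at 10 h. Its difference was −0.14 (95% interval −0.50 to 0.21; adjusted p = 0.731) at 1 h and 0.18 (−0.17 to 0.53; adjusted p = 0.838) at 10 h by limma.

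The position of the strongest TM7SF2 summit also varied between lists. It lay 633 and 1013 bp downstream of the start site in the WT 0 h lists, 285 and 224 bp at 1 h and 137 and 197 bp at 10 h. Summits of the RAD21 line lay 207 and 555 bp downstream at 0 h and 567 and 548 bp at 1 h. The promoter region was covered by peaks over 1193 and 994 bp at WT 0 h, 678 and 2372 bp at 1 h and 2638 and 2867 bp at 10 h. Of the 8 genes, 7 (all but SQLE) were covered over more bases in each of the 7 lists with input in the peak names than in any of the 3 without.

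**Figure D3:**
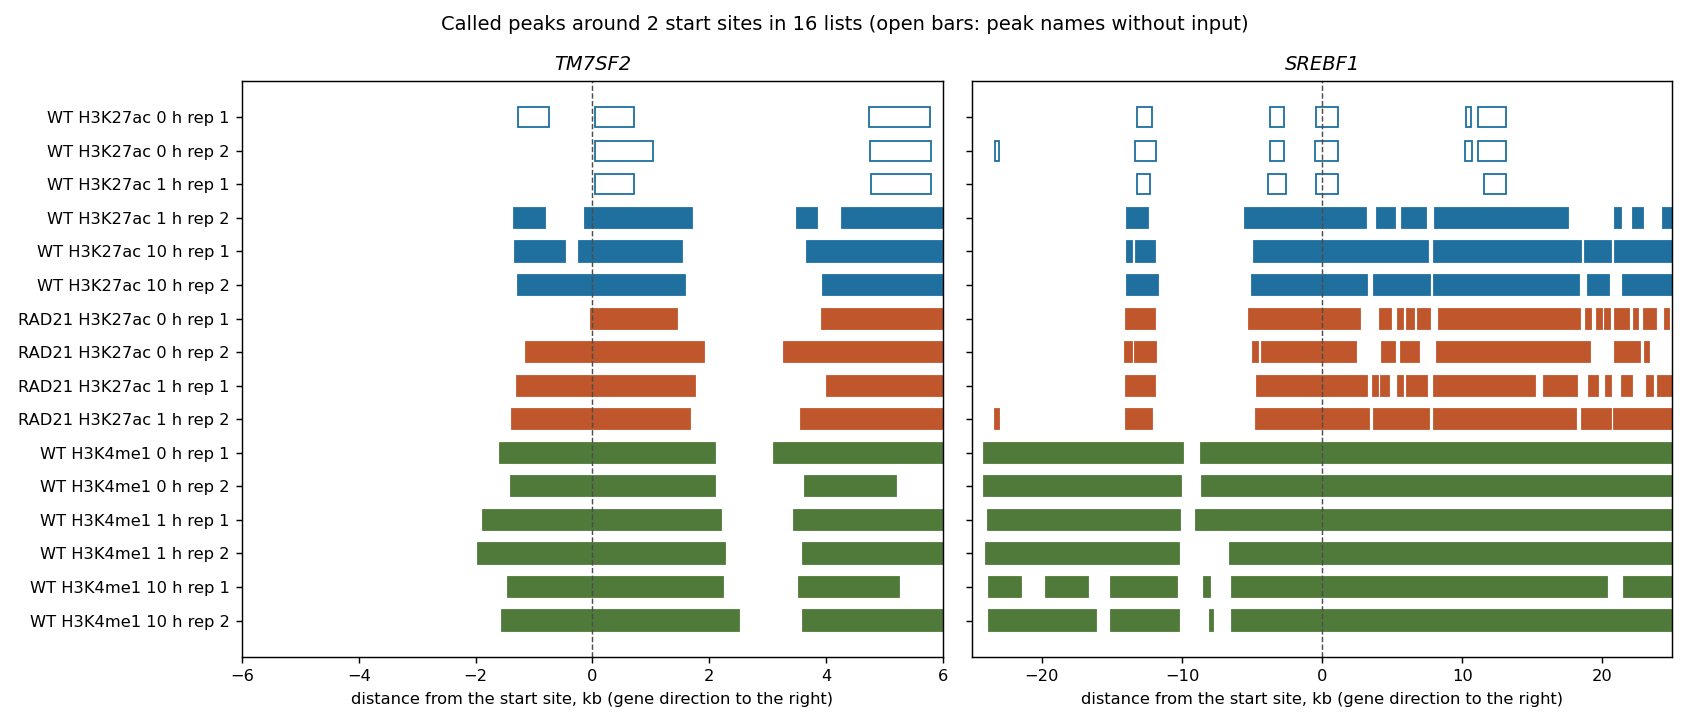
Called peaks as bars along the distance from the start site in kb (x axis, gene direction to the right) around TM7SF2 and SREBF1 in the 10 H3K27ac and 6 H3K4me1 lists (rows; open bars are lists whose peak names lack the word input). The H3K27ac region of SREBF1 is covered over 2605 to 2851 bp in the open lists and 9278 to 12427 bp in the filled ones, while the strongest H3K4me1 peak there spans 26737 to 40193 bp.

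Among the promoters whose H3K27ac scores over the 10 lists correlated most with TM7SF2, of 10091 other promoter regions, were HSPA1L (Pearson's r = 0.967), MMP11 (0.962), a region shared by AGER, GPSM3 and PBX2 (0.961) and one shared by DNAJB14 and H2AZ1 (0.958). HSPA1L was at the 14.0th and 9.91st percentile in WT 0 h, 38.8 and 65.1 at 1 h and 65.0 and 63.8 at 10 h. MMP11 was at 17.4 and 5.59, then 36.2 and 68.2, then 65.2 and 64.9. In both, as in TM7SF2, replicate 1 of WT 1 h lay between the 0 h lists and its partner. Among the other 7 genes r with TM7SF2 ran from −0.93 (INSIG1) to 0.65 (SREBF1). The 10 points of each r share 5 groups and the 2 forms of peak names, so r is a description.

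Turning to the SREBP genes, SREBF1 held the strongest promoter peak of the group, with the 98.4th and 98.6th percentile in WT at 0 h, 95.7 and 99.8 at 1 h and 99.8 and 99.8 at 10 h. The RAD21 line had 99.8 and 99.9 at 0 h and 100 and 99.9 at 1 h. The WT lists whose peak names carry input (replicate 2 of 1 h and both of 10 h) were above the 3 others. Its normal score was higher in the RAD21 line than in WT by 0.78 ± 0.28 (SE) at 0 h (limma, adjusted p = 0.0455) and by 1.05 ± 0.28 at 1 h (adjusted p = 0.0315). With the peak name form as a term in limma these became −0.35 (adjusted p = 0.317) and 0.48 (adjusted p = 0.0517), so the call was lost in both and the sign turned at 0 h. The 0 h call was lost in 8 and the 1 h call in 9 of the 10 fits that left out 1 list.

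At the SREBF1 summit the local background was 144, 137 and 85.1 fragments in the 3 lists named without input and 2.19 to 4.00 in the other 7. The fragments themselves numbered 926 and 877 in WT at 0 h, 452 and 311 at 1 h and 643 and 660 at 10 h, which was at most 16.5 times the list median at 0 h, 8.69 and 14.1 times at 1 h, and 36.3 and 33.4 times at 10 h, where both ratios were above those of the other 4 WT lists. The RAD21 line had ratios of 27.5 and 27.7 at 0 h and 23.4 and 29.0 at 1 h. Ranked by fragments, the RAD21 line differed from WT by 0.10 at 0 h (adjusted p = 0.515) and by 0.41 at 1 h (adjusted p = 0.00926) by limma. The part of the background in the SREBF1 differences was not tested.

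SREBF2, the main activator of the sterol enzymes, was at 93.2 and 89.4 in WT at 0 h, 91.6 and 91.5 at 1 h and 92.6 and 92.5 at 10 h. The RAD21 line had 93.2 and 90.6 at 0 h and 92.5 and 94.4 at 1 h, and at 1 h both were above both WT lists. None of its 6 tested H3K27ac differences passed the threshold in limma, and they ran from −0.15 to 0.22 in normal score.

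INSIG1 was at 94.7 and 94.6 in WT at 0 h, 89.8 and 88.6 at 1 h and 89.3 and 91.7 at 10 h, with both 0 h lists above the 4 later ones. It fell by 0.60 ± 0.13 (SE) in normal score from 0 h to 10 h (limma, adjusted p = 0.00788), the 1 called member of 7 tested in this comparison, where 9.70% of all 18757 regions rose and 8.56% fell. With the peak name form as a term in limma the difference was −0.34 (adjusted p = 0.279), and the call was also lost when either 0 h list or replicate 1 of 10 h was left out (limma, adjusted p from 0.0607 to 0.0845). In the RAD21 line INSIG1 was at 91.0 and 89.9 at 0 h and 89.0 and 88.7 at 1 h. It was lower there than in WT at 0 h by 0.51 ± 0.13 (limma, adjusted p = 0.00722), and with the peak name term the difference was −0.25 (adjusted p = 0.310). That call was also lost without replicate 2 of the RAD21 line at 0 h (adjusted p = 0.0701) or of WT at 0 h (adjusted p = 0.0503).

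Among the enzymes, SQLE, the squalene epoxidase, changed within the RAD21 line. Its percentiles were 77.3 and 77.5 before and 64.2 and 63.8 after 1 h of Nutlin-3a, with no overlap and under 0.5 percentile points between replicates. Its normal score fell by 0.66 ± 0.13 (SE; 95% interval −0.95 to −0.38; limma, adjusted p = 0.00257). Of the 8 members SQLE alone was called here, against 14.4% of all regions that rose and 13.4% that fell, so 1 of 8 is close to that background. Ranked by fold, the SQLE difference was −0.53 and the call was lost (limma, adjusted p = 0.314). All 4 lists carry input in their peak names. Its summit held 67.0 and 78.0 fragments at 0 h and 52.0 and 76.0 at 1 h, or 3.94 and 3.55 against 2.08 and 2.17 times the list medians.

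In WT, SQLE was at 59.2 and 54.9 at 0 h, 67.0 and 71.0 at 1 h and 72.0 and 71.8 at 10 h. These percentiles rise, but over the 18757 regions called in every list its score at 10 h differed from 0 h by 0.05 (95% interval −0.23 to 0.33; limma, adjusted p = 0.819). The 10 h lists held 49127 and 46638 peaks and the 0 h lists 33976 and 32739, and a percentile in a list depends on its length. The part of list length in the rise of the SQLE percentiles was not tested. Subtracting the WT 1 h change from that of the RAD21 line gave −1.01 ± 0.19 (SE; limma, adjusted p = 0.00210), and −0.85 with the call lost when ranked by fold (adjusted p = 0.276). The WT change within it, 0.35, belongs to the comparison that chose the group and was not tested alone. SQLE was higher in the RAD21 line than in WT by 0.57 at 0 h (limma, adjusted p = 0.00456) and lower by 0.44 at 1 h (adjusted p = 0.0457). Ranked by fold both calls were lost, and the 1 h call was also lost in 9 of the 10 fits that left out 1 list.

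IDI1, the isomerase whose region also holds the WDR37 promoter, was at 95.8 and 95.4 in WT at 0 h, 83.2 and 92.3 at 1 h and 97.3 and 98.2 at 10 h. The 10 h lists were above all other WT lists and the 1 h lists below them. From 1 h to 10 h it rose by 0.81 ± 0.14 (SE) in normal score (limma, adjusted p = 9.34e-04), the 1 called member of 7 tested where 15.8% of all regions rose and 16.5% fell. The difference of IDI1 was 0.61 with the peak name form as a term in limma (adjusted p = 3.29e-04). When peaks were ranked by fold it was 0.73 in limma (adjusted p = 0.254).

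In the RAD21 line IDI1 was at 90.2 and 91.2 at 0 h and 92.1 and 92.1 at 1 h, with no overlap, and the difference of 0.15 in normal score did not pass the threshold (95% interval −0.15 to 0.45; limma, adjusted p = 0.448). The 1 h change in the RAD21 line exceeded that in WT by 0.79 ± 0.19 (limma, adjusted p = 0.0111), a call that was narrowly lost without replicate 1 of WT 0 h and lost when ranked by fold (0.18, adjusted p = 0.912). Most of that difference is the WT change of −0.64, which belongs to the comparison that chose the group and was not tested alone. SQLE and IDI1 were the 2 of 7 tested members past the threshold in this comparison of the lines, 1 in each direction, where 11.7% of regions were higher and 11.0% lower. IDI1 was also lower in the RAD21 line than in WT at 0 h, by 0.60 ± 0.14 (adjusted p = 0.00435 by limma), but ranked by fold the sign turned and the call was lost (0.33, adjusted p = 0.533).

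HMGCS1, the HMG-CoA synthase, was at 92.9 and 93.4 in WT at 0 h, 89.7 and 91.3 at 1 h and 94.2 and 93.6 at 10 h, and at 93.8, 95.4, 92.3 and 92.2 in the RAD21 line. FDFT1, the squalene synthase, was at 70.0 and 68.6, then 59.7 and 72.3, then 79.2 and 78.4 in WT, and at 72.8, 69.4, 74.8 and 75.2 in the RAD21 line. Neither gene passed the threshold in any of the 6 tested H3K27ac comparisons. The largest difference of the pair was that of FDFT1 between the lines in the 1 h change, 0.50 (95% interval 0.10 to 0.89 before adjustment; limma, adjusted p = 0.0667).

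Read over the lines at 0 h, 4 of 7 tested members differed, SQLE and SREBF1 higher and INSIG1 and IDI1 lower in the RAD21 line. Of all regions 16.8% were higher and 20.7% lower in this comparison. At 1 h, 2 of 7 differed, SREBF1 higher and SQLE lower, where the shares of all regions were 5.68% and 6.15%. With the peak name form as a term the 0 h count was 2, with SREBF1 turned in sign, and the 1 h count was 0. The 1 h count was also 0 without a trend, ranked by fold and in 9 of the 10 fits that left out 1 list, and 1 with the replicate number as a block. Comparisons between the lines at 0 h set lists named with input against lists named without, so line and peak name form cannot be told apart there except through WT 1 h. These comparisons share lists with those over time, so their counts are not separate evidence. In the description of WT 1 h against 0 h, the other genes differed by −0.64 (IDI1), −0.50 (INSIG1), −0.25 (HMGCS1), −0.24 (FDFT1), −0.04 (SREBF2), 0.09 (SREBF1) and 0.35 (SQLE) in normal score.

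**Figure D4:**
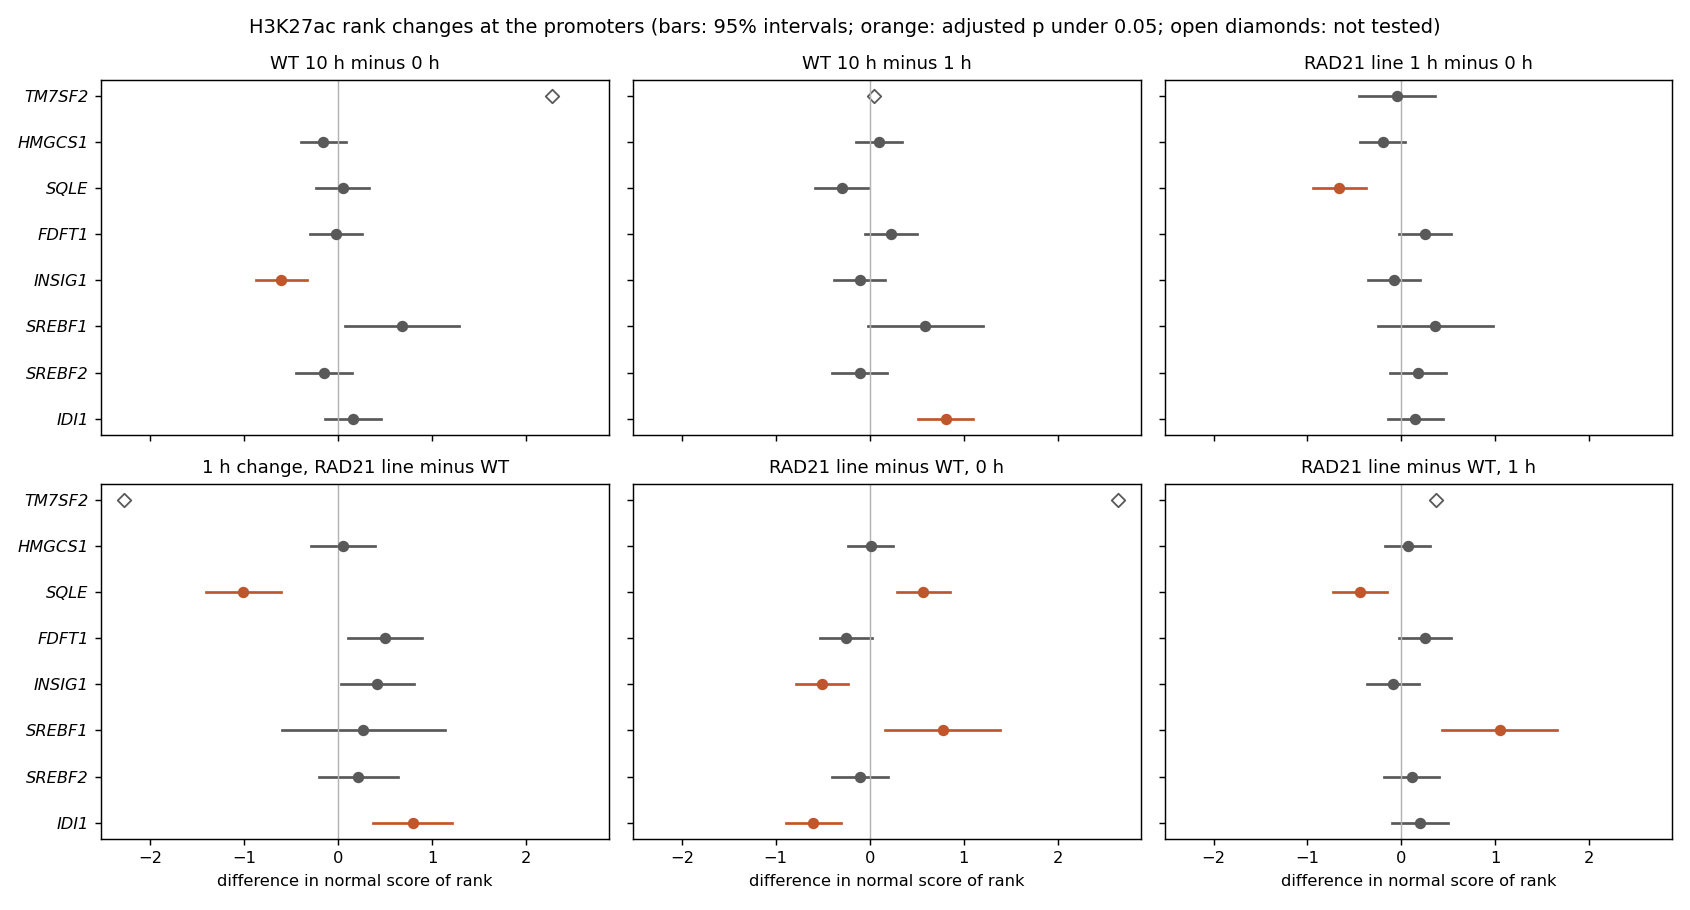
Differences in normal score of the H3K27ac promoter peaks (x axis) for the 8 genes in 6 comparisons. Points are limma estimates with 95% intervals, orange where the adjusted p is under 0.05, and open diamonds are TM7SF2 values given with no test. SQLE fell by 0.66 in the RAD21 line at 1 h, and its change there was 1.01 below that of WT.

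No H3K4me1 difference from 0 h was called at the 8 promoter regions. None passed the threshold at 1 h or at 10 h against 0 h in limma, and 0 of 8 had an unadjusted p under 0.05 in either comparison. Of all 60476 H3K4me1 regions, 0.595% were called at 1 h and 0.638% at 10 h. SREBF1 again ranked first, at the 99.0th to 99.6th percentile. TM7SF2 came next at 87.9 to 95.5, although its H3K27ac peak was the weakest of the 8 in WT at 0 h. The largest H3K4me1 differences were those of SREBF2, which was at 89.4 and 87.2 at 0 h, 85.2 and 82.2 at 1 h and 84.1 and 80.6 at 10 h, with both 0 h lists above the 4 later ones. The SREBF2 peak read began 19796 bp or more downstream of the start, except in replicate 2 of 1 h. There it ran from −3063 to −343 bp, so this order mixes different places of the region and is not a reading of the promoter itself. HMGCS1 was at 81.3 and 81.2 at 0 h, above both 10 h lists (77.3 and 75.9), and its difference of −0.15 was not called (limma, adjusted p = 0.890). In normal score SREBF2 differed by −0.25 (95% interval −0.61 to 0.12) at 1 h and by −0.26 (−0.63 to 0.10) at 10 h.

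**Figure D5:**
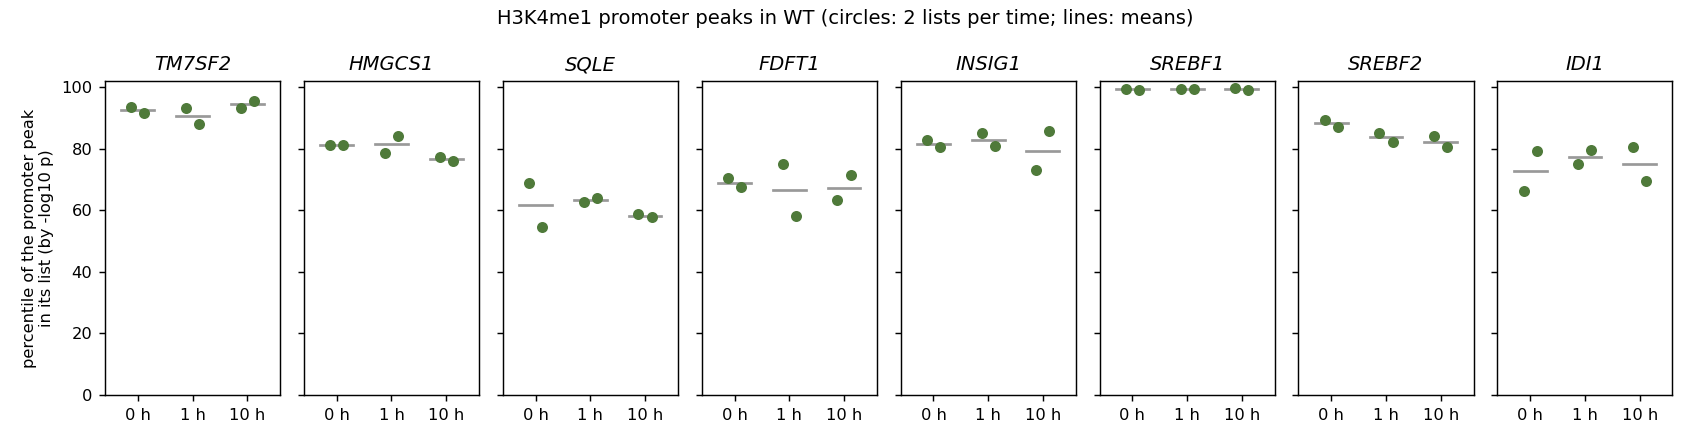
Percentile within its list of the strongest H3K4me1 peak of the promoter region (y axis) against hours of Nutlin-3a in WT (x axis, 0, 1 and 10). For SREBF2 this peak begins 19796 bp or more downstream of the start in all lists but replicate 2 of 1 h. Circles are the 2 lists of each time and lines their means. SREBF1 lies at 99.0 to 99.6 and TM7SF2 at 87.9 to 95.5 at every time.

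Within 25 kb of the start sites, SREBF1 had 5600 to 34185 of 63385 bp covered by H3K27ac. TM7SF2 had 6761 to 21063 of 50154 bp, much of it at promoters of neighbouring genes. SREBF1 had more than TM7SF2 except in replicate 1 of WT 0 h (6504 against 7294 bp) and of WT 1 h (5600 against 6761 bp). In the other 6 genes the covered length ran from 1245 bp (FDFT1) to 6494 bp (IDI1). The covered length of SREBF1 split by the form of the peak names, with 5600 to 7222 bp in the 3 lists named without input and 26993 to 34185 bp in the 7 others, while 30.7 to 31.9 Mb of the genome were covered by all peaks of the former lists and 49.1 to 66.6 Mb by those of the latter.

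Outside promoters, 34 H3K27ac regions lay in these windows, of which 2 (both near SREBF1) were called in all 10 lists and 17 in 1 list. H3K4me1 overlapped 14 of the 34 in all 6 lists and 10 in none. The region with the highest mean percentile (0 where it was not called) was at −12974 bp from the SREBF1 start, on chromosome 17 from 17752033 to 17754339 with its summit in an intron of TOM1L2. Its percentiles were 67.0 and 57.2 in WT at 0 h, 49.1 and 65.5 at 1 h and 72.0 and 66.7 at 10 h, and 70.3, 66.9, 61.5 and 56.6 in the RAD21 line. H3K4me1 covered it in all 6 lists, and none of its 6 tested differences passed the threshold (limma, adjusted p from 0.0578 to 0.851).

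The other region called in all 10 lists, named after its values were seen, lay 29257 bp downstream of the same SREBF1 start, on chromosome 17 from 17709914 to 17711647 with its summit in an intron of RAI1. It was at 14.3 and 10.4 in WT at 0 h, 2.24 and 20.2 at 1 h and 61.7 and 56.7 at 10 h, so the 10 h lists were above the 4 earlier ones. From 1 h to 10 h it rose by 1.61 in normal score (limma, adjusted p = 0.0309), and its difference of 1.32 from 0 h to 10 h was not called (adjusted p = 0.0912). Both 0 h lists and replicate 1 of 1 h, the lowest of the WT lists here, are named without input. Fits with that form as a term or with 1 list left out are not given for this region. The RAD21 line had 23.6 and 47.8 at 0 h and 22.2 and 21.8 at 1 h, with no called difference. H3K4me1 was called over it in all 6 lists.

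The strongest non-promoter region of each other gene was called in 1 to 7 of the 10 lists. Near HMGCS1 it lay at −22778 bp from the start, between genes (chromosome 5, 43335829 to 43337264) and was called in both WT lists at 0 h and at 1 h and in neither at 10 h. Near INSIG1 it lay 9020 bp downstream of the start in an intron of INSIG1 (chromosome 7, 155098137 to 155099417), called in 1 WT list at 0 h, in both at 1 h and in 1 at 10 h, and in the RAD21 line in none at 0 h and both at 1 h. Near SREBF2 it lay at −10371 bp from the start, in an intron of CCDC134 (chromosome 22, 42217730 to 42219748), called in no WT list at 0 h, in both at 1 h and in 1 at 10 h, and in all 4 lists of the RAD21 line. H3K4me1 was called over these 3 regions in all 6 lists.

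Near TM7SF2 the strongest such region was 16333 bp downstream, at an exon of SYVN1 (chromosome 11, 64893315 to 64896805). It was called in no WT list at 0 h, in 1 at 1 h and in both at 10 h, in all 4 lists of the RAD21 line, and in 1 H3K4me1 list. The IDI1 region, 9946 bp downstream at an exon of IDI1 (chromosome 10, 1084729 to 1085229), was called in both WT lists at 10 h only and in no H3K4me1 list. The regions in an intron of SQLE (19010 bp downstream) and in an intron of FDFT1 (10942 bp downstream) were called in 2 lists, both of WT 0 h, and in 1 list. The lists differ in length, so these counts are descriptions.

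Other genes of the pathway were taken from lists chosen with earlier results of these data known, and were read at the strongest promoter region called in every list. Of 21 mevalonate and sterol enzymes all had such an H3K27ac region. After 1 h in the RAD21 line, 4 of the 21 rose and 7 fell (median difference −0.04), against 18.0% and 13.8% of 11804 promoters (median 0.08). Of the 20 tested without TM7SF2, 1 rose and 0 fell from 0 h to 10 h in WT, where 5.29% of promoters rose and 9.90% fell. Between 1 h and 10 h 4 rose and 2 fell, against 15.8% and 22.1%. In the comparison of the 1 h changes 3 were higher and 4 lower, against 1795 and 1414 of 11804 promoters. Between the lines 4 were higher and 5 lower at 0 h (17.3% and 23.5% of promoters), and 1 and 1 at 1 h (6.90% and 5.19%).

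Of 7 SREBP control genes, 2 rose and 1 fell in the RAD21 line at 1 h, and 0 rose and 1 fell from 0 h to 10 h in WT. At 10 h against 1 h 1 rose and 0 fell, and in the comparison of the 1 h changes 2 were higher and 0 lower. Between the lines 1 was higher and 3 lower at 0 h, and 2 and 0 at 1 h. Of 8 uptake and transport genes 6 were measured (ABCA1 and ABCG1 lacked a promoter region called in every list), and 1 rose and 1 fell both in the RAD21 line at 1 h and from 0 h to 10 h in WT. From 1 h to 10 h 1 rose and 0 fell, 3 were higher and 1 lower in the comparison of the 1 h changes, and between the lines 1 was higher and 2 lower at each time. Of 9 fatty acid targets of SREBP, 3 rose and 0 fell in the RAD21 line. From 0 h to 10 h in WT 0 of the 9 passed the threshold in limma, and 0 had an unadjusted p under 0.05. From 1 h to 10 h 0 rose and 3 fell (ACACA, SCD and ELOVL6, by 0.73, 0.52 and 0.67), and 1 was higher and 1 lower in the comparison of the 1 h changes. Between the lines 2 were higher and 1 lower at 0 h, and 1 and 1 at 1 h. The shares of all promoters given above hold for each of these lists.

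For H3K4me1 none of the genes of the 4 lists passed the threshold in limma. An unadjusted p under 0.05 was found for 7 of 44 at 1 h and 5 of 44 at 10 h, against 12.9% and 6.86% of 13616 promoters. FADS1 and FADS2 share 1 region in both marks, so it is counted for each of them.

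Among these genes the smallest p-values in the RAD21 line at 1 h included those of NSDHL, a sterol dehydrogenase, on the lower side, and MBTPS1, a protease that cuts the SREBPs free, and ACLY, which makes cytosolic acetyl-CoA, on the higher side. NSDHL, whose region also holds the CETN2 promoter, went from the 96.3rd and 96.8th percentile to 81.3 and 78.8 (−1.22 in normal score, limma adjusted p = 1.83e-05). MBTPS1 went from 91.1 and 91.0 to 99.2 and 99.1 (1.24, limma adjusted p = 2.16e-04), and ACLY from 81.9 and 85.7 to 93.6 and 92.7 (0.69, limma adjusted p = 0.00181). The groups of 2 lists do not overlap in these 3 genes.

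In WT from 0 h to 10 h, MSMO1, a sterol oxidase, rose by 0.55 (limma, adjusted p = 0.0332). MYLIP, a ubiquitin ligase, fell by 0.54 (adjusted p = 0.00515 by limma), with 88.5 and 88.5 at 0 h against 85.4 and 84.2. The 0 h lists are named without input and the 10 h lists with it. Fits with that form as a term are not given for these genes. From 1 h to 10 h, NPC1, which carries cholesterol out of lysosomes, rose by 0.72 (limma, adjusted p = 0.00134), and ELOVL6, a fatty acid elongase, fell by 0.67 (adjusted p = 0.00121). Against 0 h, however, the 10 h values of NPC1 and ELOVL6 differed by only −0.11 and 0.01 (limma, adjusted p = 0.564 and 0.959). Replicate 1 of WT 1 h is also named without input.

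Between the lines, MSMO1 was higher in the RAD21 line by 1.87 and NSDHL by 0.96 at 0 h, and NPC1 and ACAT2 (in a region shared with SOD2) were lower by 0.87 and 0.75. At 1 h MBTPS1 was higher by 0.93 and MYLIP by 0.50, and STARD4 was lower by 0.53. For the 1 h change of the RAD21 line minus that of WT the values were 1.95 (MBTPS1), 1.27 (NPC1), −1.65 (MSMO1) and −1.02 (NSDHL). All of these passed the threshold in limma (adjusted p from 3.39e-06 to 0.0209). Both WT 0 h lists and replicate 1 of WT 1 h are named without input, so line and form are mixed in these comparisons. No fit with the form as a term is given for these genes.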

How the data were processed

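ChIP-seq peak lists of H3K27ac (10 lists) and H3K4me1 (6 lists) from HCT116 and HCT116_RAD21 cells were analysed. Per the submitters' processing notes the peak caller was MACS2 2.2.7.1 after alignment with Bowtie2 2.3.2 and trimming with Trim Galore 0.6.6, and the authors deposited 1 list per library on GRCh37. For each peak the deposited values are the fold enrichment over local background, a −log10 p-value with its −log10 q-value from MACS2 and, in the narrow H3K27ac lists, the summit position in bp, a value the authors took from the same caller. The 10 input libraries were not analysed here. The lists hold no read totals, so depth is unknown.

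Peaks of a mark were merged into regions over its lists (87608 for H3K27ac, 110276 for H3K4me1), of which 18757 and 60476 were called in every list. Within a list these regions were ranked by their strongest −log10 p-value and ranks were turned into normal scores. Groups were compared with limma 3.58.1 in R 4.3.3 (eBayes with a trend, all lists of a mark in 1 fit), with Benjamini-Hochberg adjustment over all regions and a threshold of 0.05. A percentile in a list is the share of its peaks with a lower −log10 p-value. Fragments at a summit and the local background were solved from the fold and the p-value. They came out within 0.05 fragments of a whole number for all peaks in 8 of the 10 H3K27ac lists, and for 7.35% and 7.83% of peaks in the WT 10 h lists. The fit was tested on simulated data.

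Start sites were those of protein-coding transcripts in the GRCh37 annotation, leaving out transcripts tagged as having an uncertain start. Promoter sequence was read from the GRCh37 genome. The members and gene lists were chosen with earlier results of these data known. Named besides the 8 members were the 2 pathway promoters with the smallest p-values in each direction of a comparison, the strongest non-promoter region near each member, and the 5 promoters most correlated with TM7SF2. Some genes that this rule names are not reported here. Alternatives ranked peaks by fold or by fragments, filtered on q-value, added the form of the peak names or the replicate number as a term, dropped the trend, used percentiles or the strongest promoter peak, or left out each list. Replicate numbers were not used to pair lists.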

Additional observations from a re-analysis of the deposited data

Results flagged for a closer look

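The 1 h response to Nutlin-3a was called as different between the lines at 2 of the 7 promoters tested, by the limma interaction term on H3K27ac normal scores. Of all 18757 regions 11.7% were higher and 11.0% lower, so 2 of 7 is close to that background. At SQLE the change in the RAD21 line was lower than that in WT, by a difference of −1.01 (adjusted p = 0.00210). At IDI1, whose region also holds the WDR37 promoter, it was higher, by 0.79 (adjusted p = 0.0111). The IDI1 change was 0.15 in the RAD21 line and −0.64 in WT, and that of SQLE was −0.66 and 0.35. The WT changes belong to the comparison that chose the group and were not tested alone. Both WT 0 h lists and replicate 1 of WT 1 h lack the word input in their peak names, and with that form as a term in limma the differences were −1.11 (adjusted p = 1.90e-04) and 0.99 (adjusted p = 3.08e-05). Ranked by fold they were −0.85 (adjusted p = 0.276) and 0.18 (adjusted p = 0.912).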

How the results depend on the processing

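Counts of called promoters moved with the processing in each H3K27ac comparison. Shares of all regions are given above for the main fits only, so no background stands beside the counts under alternatives. In WT 10 h against 0 h the count of 1 became 0 with the peak name form as a term, 2 ranked by fold and 0 ranked by fragments with the form as a term, and it ran from 0 to 2 when 1 list was left out. In WT 10 h against 1 h the count of 1 became 0 by fold and 2 by fragments, by fragments with the form, and with the strongest promoter peak, and it ran from 1 to 3 without 1 list. In the RAD21 line at 1 h the count of 1 became 2 with the form, 0 by fold and 2 by fragments with the form, and ran from 1 to 2 without 1 list. In the comparison of the 1 h changes the count of 2 became 4 with the form and 0 by fold, and ran from 1 to 4. Between the lines at 0 h the count of 4 became 2 with the form, by fold, and by fragments with the form, and ran from 2 to 4. At 1 h the count of 2 became 0 without a trend, with the form and by fold, and 1 with percentile ranks, and ran from 0 to 3 without 1 list. Leaving out replicate 2 of WT 1 h gave the highest count, or tied for it, in each of these 6 comparisons. For H3K4me1 the count stayed at 0 under the alternatives run.

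The WT 1 h difference of TM7SF2, 2.23, was 2.82 by fold, 1.99 with the form, 0.43 by fragments and 0.44 by fragments with the form, and it ran from 1.94 to 2.37 without 1 list. Between the lines at 0 h the sign turned for SREBF1 with the form (−0.35, from 0.78) and for IDI1 by fold (0.33, from −0.60), with neither past the threshold in limma. Sign changes where neither value passed the threshold are not listed. Within 10000 bp in place of 25 kb the mean number of peaks per list summed over the genes went from 33.4 to 20.1 for H3K27ac and from 37.7 to 22.5 for H3K4me1. The cause of these differences was not tested.

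With the replicate number as a block, the count between the lines at 1 h became 1 in place of 2 and no other count changed. The pairing check correlated the score difference of replicate 1 minus replicate 2 in a group with the same difference in another group. For H3K27ac these correlations ran from −0.0501 to 0.0453, so by this check same-numbered lists share only a number. With 2 lists a group and no read totals, differences smaller than the intervals given were not detectable here.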
